A study of Mus musculus with 16 samples.

Results

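The 10 genes described here are Trem2, Tyrobp, Fcer1g, Msr1, Gpnmb, Itgax, Cd9, Spp1, Lgals3 and Mmp12, which are used as markers of TREM2-bearing foam cells, the lipid-filled macrophages of atherosclerotic plaque. The genes were chosen by name, with earlier results of these libraries known, and each was read from the deposited locus that carries its name, taking the locus with the highest mean FPKM (fragments per kilobase of transcript, scaled to the size of the library) over the 16 libraries. That choice mattered only for Cd9, which had 2 loci, and it used no difference between groups. The 10 loci stand among 24091 that were tested and 70603 in the table.

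The RNA came from the whole aorta of mice of the ApoE-/- line, a strain without the lipoprotein ligand apolipoprotein E that forms plaque, most of all on a Western diet. One label field gives the genotype as "APOE knockdown". Mice entered at an age of 8 weeks. The AS22W group ate Western diet for 22 weeks and the Sham22W group normal purified diet for 22 weeks, both to an age of 30 weeks. The AS6W group ate Western diet for 6 weeks and the Sham6W group normal purified diet for 6 weeks, both to an age of 14 weeks. Each group had 4 libraries, all groups carried the Apoe mutation, and no wild-type aorta was included. The labels do not say that the 4 libraries came from separate mice, so p-values measure the spread between libraries, which may be technical. Time on diet also runs with age and with the prefix of the library codes in the labels, and these cannot be told apart. Because whole aorta was sequenced, fewer cells of a type and less RNA per cell cannot be told apart either.

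TREM2 is a macrophage surface receptor for lipids, lipoproteins and cell debris. It has no signalling tail of its own and works through the adaptor DAP12, encoded by Tyrobp, whose ITAM motif recruits the kinase SYK. In mouse plaque, TREM2-bearing macrophages are known as the main lipid-laden population, and they are recognised by high Gpnmb, Cd9, Spp1, Lgals3 and Itgax beside Trem2.

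Total estimated counts lay between 45253433 and 81397840 per library. Macrophage RNA was present in every library: Csf1r was at 7.15 FPKM or more and C1qa at 21.2 FPKM or more in each. Other markers were low, with Aif1 down to 0.388 FPKM in Sham6W. All 20 general macrophage markers passed the filter on low values, which asks for 1 FPKM in at least 4 libraries. Their summed FPKM was 816 to 1185 in AS22W, 324 to 654 in Sham22W, 224 to 663 in AS6W and 208 to 456 in Sham6W. The Cd68 locus in that list also carries Senp3, Eif4a1, Tnfsf12 and other names, whose reads cannot be separated. It averaged 12.1 FPKM in AS22W, 10.2 in Sham22W, 19.2 in AS6W and 18.5 in Sham6W. Some libraries stood apart. AS6W replicate 1 had 109 FPKM of summed T cell and thymocyte markers, against 4.98 to 21.7 FPKM in the other AS6W libraries. AS6W replicate 3 had 58.0 FPKM of Adgre1 (the macrophage marker F4/80), against 4.72 to 5.38 FPKM in the other AS6W libraries. B cell and plasma cell markers summed to 112 FPKM in Sham22W replicate 4 and 67.8 FPKM in Sham6W replicate 2. For several results the value without AS6W replicate 1 or 3 is given beside the value with it.

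The promoters of 4 of the genes are shown because each holds TGANTCA, a wide form of the AP-1 motif, close to its start. N is any base: it is A in Trem2, C in Gpnmb and G in Itgax and Mmp12. These 4 are among 6 genes whose RNA levels varied together across the libraries, and the other two, Spp1 and Lgals3, hold no TGANTCA in the windows searched. Promoters were taken from RefSeq on GRCm38.p6, which held 8 of the 10 genes with 10 starts in all. Capitals mark TGANTCA and, in Trem2, the PU.1 core GAGGAA, read on the opposite strand as TTCCTC. The stretches run from 150 bases before the start through the first 30 bases from it, on the plus strand, at chr17:48346251-48346430 for Trem2, chr6:49036368-49036547 for Gpnmb, chr7:128129400-128129579 for Itgax and chr9:7347224-7347403 for the second listed start of Mmp12.
Trem2: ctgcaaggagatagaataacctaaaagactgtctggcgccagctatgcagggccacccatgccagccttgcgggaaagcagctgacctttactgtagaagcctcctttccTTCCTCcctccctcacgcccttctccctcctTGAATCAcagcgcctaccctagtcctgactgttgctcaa
Gpnmb: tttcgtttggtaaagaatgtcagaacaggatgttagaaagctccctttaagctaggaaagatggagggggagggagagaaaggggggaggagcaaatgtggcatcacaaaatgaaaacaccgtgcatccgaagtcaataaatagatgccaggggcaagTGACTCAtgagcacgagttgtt
Itgax: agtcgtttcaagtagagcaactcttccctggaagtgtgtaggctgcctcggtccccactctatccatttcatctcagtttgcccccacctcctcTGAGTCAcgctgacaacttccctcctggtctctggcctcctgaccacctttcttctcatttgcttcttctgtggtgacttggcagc
Mmp12: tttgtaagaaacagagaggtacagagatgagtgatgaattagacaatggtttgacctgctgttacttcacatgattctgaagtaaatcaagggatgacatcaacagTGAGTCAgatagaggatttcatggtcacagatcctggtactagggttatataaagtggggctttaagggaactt
Each motif was searched on both strands of the whole 300-base windows, and the motifs do not overlap one another. AP-1 factors and PU.1 are transcription factors active in macrophages. TGANTCA was in 4 of the 10 promoters, against 7.81% of 32851 RefSeq promoters. GAGGAA was in 3 of the 10 (Trem2 and the first listed starts of Spp1 and Mmp12), close to its share of 28.28% of all promoters. The E-box CACGTG, bound by MITF and TFEB, was in 0 of the 10, against 7.15% of promoters. A match says only that the letters are there, and no test was made on these shares.

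Trem2, the receptor (chr17:48346401-48354023), reached 8.26, 5.96, 7.84 and 6.52 FPKM in AS22W replicates 1 to 4, against 4.20, 1.94, 3.62 and 1.64 FPKM in Sham22W. At 6 weeks it stood at 1.10, 0.404, 0.369 and 0.458 FPKM in AS6W, against 0.317, 0.174, 0.745 and 0.208 FPKM in Sham6W. Every AS22W library thus lay above every Sham22W library, every 22-week library lay above every 6-week library, and the diets overlapped at 6 weeks. The group means were 7.14 ± 1.08 FPKM in AS22W, 2.85 ± 1.25 in Sham22W, 0.583 ± 0.348 in AS6W and 0.361 ± 0.263 in Sham6W (SD, n = 4 each). From 6 to 22 weeks Trem2 rose on both diets, by 3.85 ± 0.50 on the log2 scale on Western diet (SE; edgeR quasi-likelihood test with Benjamini-Hochberg adjustment over all loci tested, adjusted p = 2.19e-05) and 3.18 ± 0.49 on normal diet (adjusted p = 8.83e-05). The diet difference at 22 weeks, 1.30 ± 0.45, missed the threshold (adjusted p = 0.202), and so did that at 6 weeks, 0.62 ± 0.46 (adjusted p = 0.713). Single 6-week libraries moved these values. Without AS6W replicate 1 the diet difference at 6 weeks was 0.14 and the rise on Western diet 4.34. Without Sham6W replicate 3 that diet difference was 1.26 and the rise on normal diet 3.82. No call for Trem2 changed in these comparisons when any 1 of the 16 libraries was left out.

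**Figure D1:**
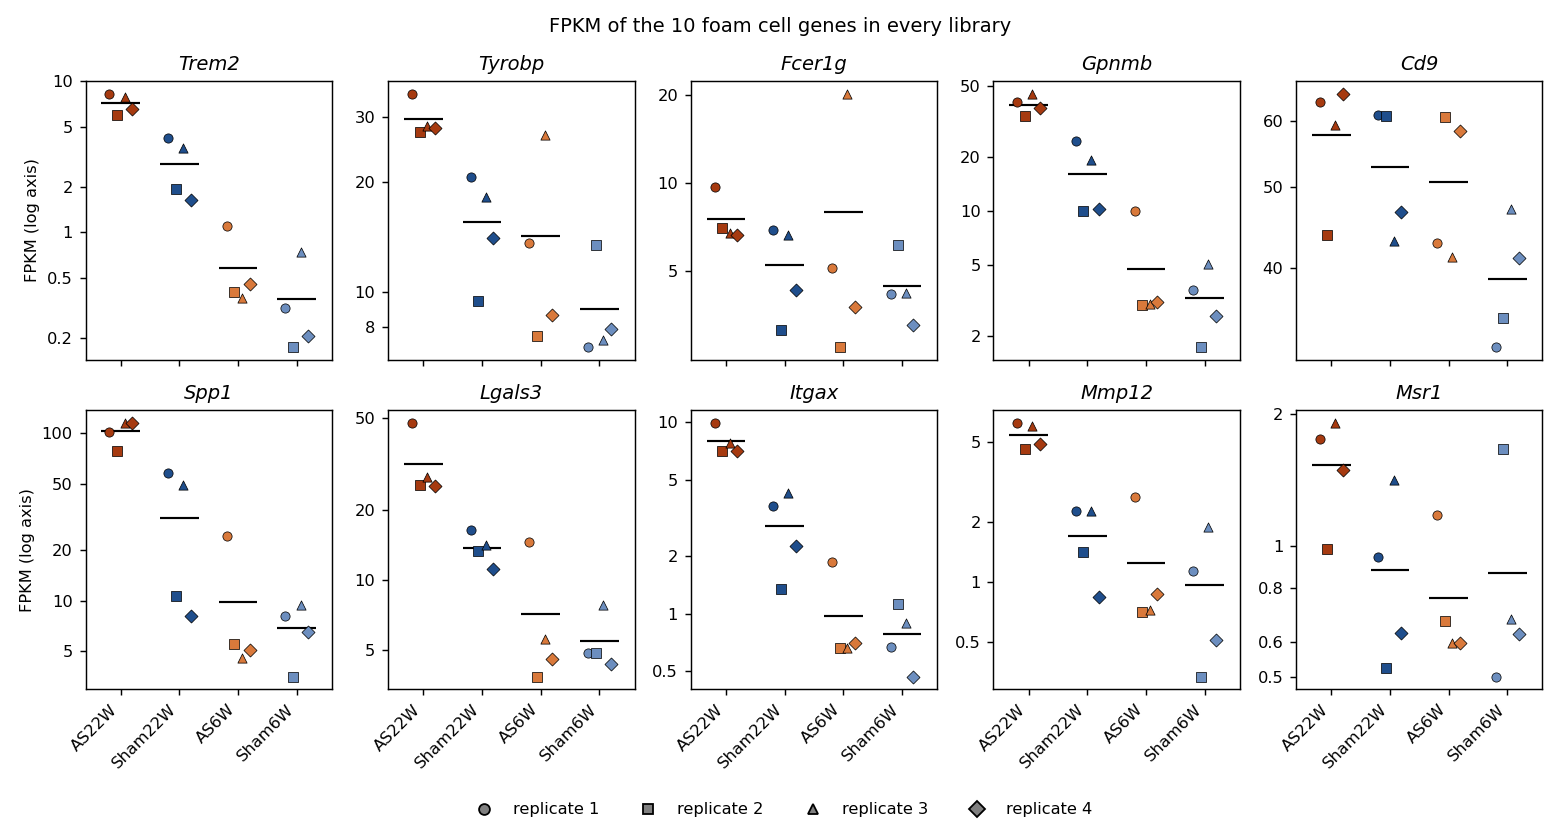
Deposited FPKM of the 10 genes in all 16 libraries, on log axes that differ between panels. Points are libraries, with a marker shape for each replicate number, and bars are arithmetic group means. Trem2, Gpnmb, Spp1, Lgals3, Itgax and Mmp12 are high in AS22W (dark orange) with no overlap with Sham22W (dark blue), while Fcer1g, Cd9 and Msr1 overlap between the diets at both times.

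Over both diets together, the adaptors varied with the receptor among the 22-week libraries but not among the 6-week libraries, as correlations further on show. Tyrobp (chr7:30413760-30417582), which encodes DAP12, stood at 34.8, 27.3, 28.4 and 28.1 FPKM in AS22W, against 20.6, 9.42, 18.2 and 14.1 FPKM in Sham22W. After 6 weeks of diet the values were 13.6, 7.59, 26.8 and 8.62 FPKM in AS6W, against 7.04, 13.5, 7.37 and 7.92 FPKM in Sham6W. The diets did not overlap at 22 weeks, but the difference of 0.90 ± 0.34 did not pass (log2 fold change ± SE, adjusted p = 0.238). Tyrobp was higher at 22 than at 6 weeks, by 1.32 ± 0.35 on Western diet (adjusted p = 0.00607) and 1.01 ± 0.34 on normal diet (adjusted p = 0.0247); the call on normal diet was lost without Sham6W replicates 1, 3 or 4 or Sham22W replicates 1 or 3, each left out alone (adjusted p between 0.059 and 0.0763). The value on Western diet was 2.09 without AS6W replicates 1 and 3.

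Fcer1g (chr1:171229572-171234365, minus strand), the ITAM adaptor of the Fc receptors, stood at 9.66, 7.0, 6.71 and 6.61 FPKM in AS22W, against 6.89, 3.14, 6.63 and 4.28 FPKM in Sham22W. The 6-week values were 5.12, 2.73, 20.2 and 3.76 FPKM in AS6W, against 4.16, 6.13, 4.17 and 3.26 FPKM in Sham6W. All comparisons overlapped and none passed. AS6W replicate 3, the library high in Adgre1, was the highest of all 16. The change from 6 to 22 weeks on Western diet was 0.17 ± 0.48 (adjusted p = 0.801) with that library and 1.19 ± 0.30 without it (adjusted p = 0.00551). At 6 weeks the diet difference was 0.77 ± 0.48 with it and -0.24 ± 0.29 without it. In that same library Trem2 was at its lowest of the AS6W group, 0.369 FPKM.

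Msr1 (chr8:39581685-39642673, minus strand), the scavenger receptor for modified lipoproteins, was the least abundant of the 10 in AS22W and reached 1 FPKM in only 6 libraries. It stood at 1.76, 0.980, 1.91 and 1.49 FPKM in AS22W, against 0.942, 0.525, 1.42 and 0.631 FPKM in Sham22W. At 6 weeks it stood at 1.17, 0.671, 0.598 and 0.598 FPKM in AS6W, against 0.501, 1.66, 0.678 and 0.627 FPKM in Sham6W. The groups overlapped in each comparison. It rose from 6 to 22 weeks on Western diet, by 1.26 ± 0.39 (adjusted p = 0.0163), but not past the threshold on normal diet (0.24 ± 0.38, adjusted p = 0.636). The diet difference at 22 weeks was 0.77 ± 0.39 (adjusted p = 0.382).

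Among the membrane proteins, Gpnmb had the pattern most like Trem2. Its locus (chr6:49036546-49098246) also carries the name of the neighbouring gene Malsu1, a mitochondrial ribosome factor, so reads of the pair cannot be separated. The locus stood at 40.5, 33.8, 45.2 and 37.6 FPKM in AS22W, against 24.7, 10.0, 19.2 and 10.2 FPKM in Sham22W. After 6 weeks of diet the values were 9.96, 2.96, 3.01 and 3.10 FPKM in AS6W, against 3.62, 1.73, 5.08 and 2.60 FPKM in Sham6W. Every AS22W library lay above every Sham22W library, and at 6 weeks AS6W replicate 1 stood alone at the top. The rise from 6 to 22 weeks was 3.30 ± 0.46 on Western diet (adjusted p = 4.16e-05), or 3.93 without AS6W replicate 1, and 2.5 ± 0.45 on normal diet (adjusted p = 0.00032). The diet difference at 22 weeks was 1.27 ± 0.43 (adjusted p = 0.184).

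Itgax (chr7:128129547-128150657) encodes the integrin CD11c, carried by dendritic cells as well as foam cells. It stood at 9.88, 7.04, 7.81 and 7.08 FPKM in AS22W, against 3.63, 1.35, 4.26 and 2.26 FPKM in Sham22W. The 6-week values were 1.86, 0.661, 0.660 and 0.703 FPKM in AS6W, against 0.667, 1.12, 0.894 and 0.469 FPKM in Sham6W. The 22-week diets did not overlap, and each 22-week group lay above the 6-week group of its diet. Itgax had the lowest p of the 10 for diet at 22 weeks, at 1.44 ± 0.38 on the log2 scale (adjusted p = 0.111). It rose from 6 to 22 weeks by 3.27 ± 0.41 on Western diet (adjusted p = 1.7e-05) and 2.08 ± 0.39 on normal diet (adjusted p = 0.000547). The 12 dendritic cell markers, of which 5 passed the filter on low values, summed to 13.2 to 16.3 FPKM in AS22W, 9.01 to 26.5 in Sham22W, 8.74 to 9.31 in AS6W and 6.94 to 14.3 in Sham6W, highest in the Sham22W library with the most B cell markers. Their part in the Itgax values was not tested.

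Cd9 (chr6:125460266-125494791, minus strand), a tetraspanin that many cell types of the vessel wall carry, had the smallest standard errors of the 10. It stood at 63.3, 43.8, 59.4 and 64.7 FPKM in AS22W, against 61.0, 60.8, 43.1 and 46.7 FPKM in Sham22W. At 6 weeks it stood at 42.8, 60.7, 41.3 and 58.4 FPKM in AS6W, against 32.1, 34.8, 47.1 and 41.1 FPKM in Sham6W. All 4 groups overlapped. The change from 6 to 22 weeks was 0.66 ± 0.18 on normal diet (adjusted p = 0.00764) and 0.42 ± 0.18 on Western diet, which did not pass (adjusted p = 0.0685). The Western-diet change passed without AS6W replicate 2 (0.52, adjusted p = 0.0458), without AS6W replicate 4 (0.52, adjusted p = 0.0456) or without AS22W replicate 2 (0.54, adjusted p = 0.0302). The diet difference at 22 weeks was 0.10 ± 0.18 (adjusted p = 0.859).

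Spp1, which encodes the secreted matrix protein osteopontin, was the most abundant of the 10 per length in AS22W. Its locus (chr5:104435118-104441050) is shared with the unclassified gene Gm42793. It stood at 101, 79.0, 115 and 115 FPKM in AS22W, against 58.1, 10.7, 48.9 and 8.14 FPKM in Sham22W. After 6 weeks of diet the values were 24.3, 5.53, 4.57 and 5.11 FPKM in AS6W, against 8.17, 3.53, 9.40 and 6.51 FPKM in Sham6W. All AS22W libraries lay above all Sham22W libraries, but the Sham22W libraries themselves were spread widely, with a coefficient of variation of 81.8%, against 16.5% in AS22W. Spp1 had the largest fitted diet difference of the 10 at 22 weeks and the largest standard error, 1.67 ± 0.64 (adjusted p = 0.239). It rose from 6 to 22 weeks by 3.63 ± 0.69 on Western diet (adjusted p = 0.000585), or 4.57 without AS6W replicate 1, and by 2.40 ± 0.65 on normal diet (adjusted p = 0.0072).

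Lgals3 (chr14:47367751-47386160), which encodes the lectin galectin-3, stood at 47.5, 25.8, 27.9 and 25.4 FPKM in AS22W, against 16.4, 13.3, 14.3 and 11.2 FPKM in Sham22W. The 6-week values were 14.6, 3.86, 5.59 and 4.62 FPKM in AS6W, against 4.88, 4.85, 7.81 and 4.36 FPKM in Sham6W. The 22-week diets did not overlap, with AS22W replicate 1 far above the rest. The diet difference at 22 weeks was 1.16 ± 0.35 (adjusted p = 0.141). Lgals3 rose from 6 to 22 weeks by 2.38 ± 0.36 on Western diet (adjusted p = 9.1e-05), or 2.98 without AS6W replicate 1, and by 1.54 ± 0.35 on normal diet (adjusted p = 0.00231).

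Mmp12 (chr9:7344381-7369499), the macrophage elastase that cleaves elastic fibres, stood at 6.25, 4.63, 6.07 and 4.93 FPKM in AS22W, against 2.28, 1.42, 2.28 and 0.842 FPKM in Sham22W. At 6 weeks it stood at 2.68, 0.711, 0.730 and 0.878 FPKM in AS6W, against 1.14, 0.337, 1.9 and 0.515 FPKM in Sham6W. AS22W lay above all other groups with no overlap, while the normal-diet groups overlapped between the times. Mmp12 rose from 6 to 22 weeks on Western diet by 2.38 ± 0.54 (adjusted p = 0.00231), or 3.05 without AS6W replicate 1. On normal diet the change of 1.02 ± 0.52 did not pass (adjusted p = 0.122), but it was 1.58 without Sham6W replicate 3 and then passed (adjusted p = 0.0251). The diet difference at 22 weeks was 1.65 ± 0.53 (adjusted p = 0.163).

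Set side by side, 7 of the 10 genes had all AS22W libraries above all Sham22W libraries, a position held by 5.35% of all loci tested, and the other 3 (Fcer1g, Cd9 and Msr1) overlapped. The same 7 had all AS22W libraries above all AS6W libraries, against 13% of loci. On normal diet 4 genes (Trem2, Gpnmb, Lgals3 and Itgax) had all Sham22W libraries above all Sham6W libraries, against 16.2% of loci. At 6 weeks 0 of the 10 had all AS6W libraries above all Sham6W libraries, against 5.04% of loci. In 8 of the 10 the group means ran in the order AS22W, Sham22W, AS6W and Sham6W. The exceptions were Fcer1g, led by AS6W, and Msr1, lowest in AS6W. Neighbours in that order on the same time, AS22W with Sham22W and AS6W with Sham6W, did not differ past the threshold in any of the 10; Sham22W and AS6W differ in both diet and time and were not compared.

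By edgeR, 0 of the 10 genes passed over all loci for diet at 22 weeks, where 0.228% of loci did. At an unadjusted p under 0.05, 7 of the 10 were higher on Western diet and 0 lower, against 7.67% of loci higher and 14.3% in either direction; these are the 7 that did not overlap. With DESeq2, 4 of the 10 passed (Gpnmb, Lgals3, Itgax and Mmp12), all higher, where 3.07% of the loci with an adjusted p were higher. With limma on log2(FPKM + 0.5), Trem2 and Itgax passed (adjusted p = 0.0498 and 0.0487), where 0.523% of loci were higher. With a pseudocount of 0.1, 0 passed, where 0.511% of loci were higher. All 10 fitted differences were positive, where 46.08% of loci were, with a median of 1.22 against -0.03 over all loci. The list was drawn up with earlier results of these libraries known, so this direction is not independent support. At 6 weeks 0 of the 10 passed by edgeR, where 0.282% of loci did, 0 had an unadjusted p under 0.05, where 10.7% did, and 0 passed with DESeq2 or with limma at either pseudocount, where 2.26%, 0.374% (0.5) and 0.328% (0.1) of loci did. Their median there was 0.39, and 9 of 10 were positive, where 50.4% of loci were.

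The 10 fitted diet differences at 6 weeks ran from -0.24 for Msr1 to 0.77 for Fcer1g, and in 5 genes the sign rested on AS6W replicate 1. Without AS6W replicate 1, the library with the most T cell markers, the log2 fold change was -0.16 for Gpnmb, -0.50 for Spp1, -0.27 for Lgals3, -0.26 for Itgax and -0.38 for Mmp12, where each had been positive with it. AS6W replicate 1 was the highest AS6W library for 7 of the 10 genes, namely Trem2, Gpnmb, Spp1, Lgals3, Itgax, Mmp12 and Msr1. The share of all loci highest in that library was not computed. The part of T cell or other lymphocyte RNA in these values was not tested.

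**Figure D2:**
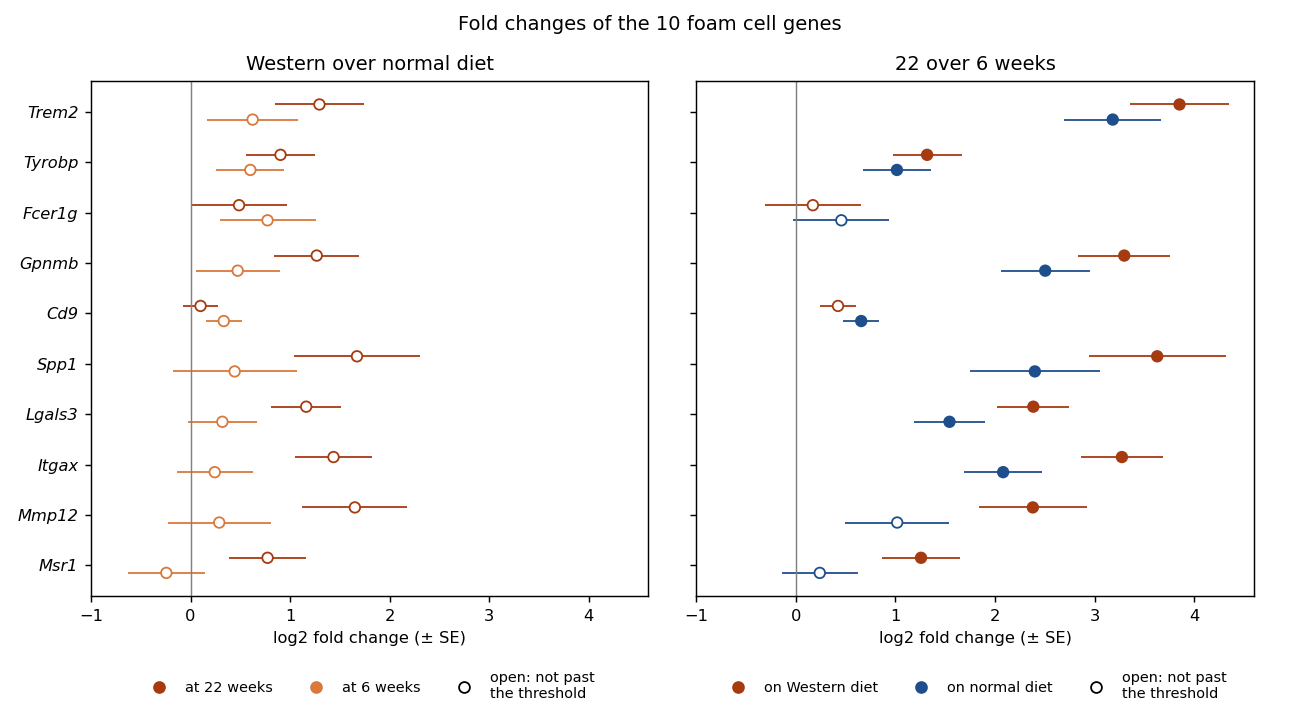
Log2 fold changes with their standard errors for Western over normal diet (left) and 22 over 6 weeks (right), from edgeR's quasi-likelihood test. Filled points passed an adjusted p under 0.05 over all loci; none is filled on the left, and 8 on Western diet and 7 on normal diet are filled on the right.

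The difference of the diet effects, 22 minus 6 weeks, passed for 0 of the 10 genes by edgeR, DESeq2 or limma, against 0.183% of loci by edgeR, 2.56% by DESeq2, 0.133% by limma with a pseudocount of 0.5 and 0.108% with 0.1. Of the 10, Itgax alone had an unadjusted p under 0.05, where 12% of loci did (1.19 ± 0.54, edgeR adjusted p = 0.397). The median of the 10 was 0.82, against -0.05 over all loci. Between the times, 8 of the 10 rose on Western diet (not Fcer1g and Cd9), where 43.8% of loci passed, 21.9% rising and 21.9% falling. On normal diet 7 rose (not Fcer1g, Mmp12 and Msr1), where 46.7% of loci passed, 24.0% rising and 22.6% falling. The medians of the 10 were 2.38 on Western and 1.28 on normal diet, against -0.02 and 0.02 over all loci. These comparisons share no libraries with each other but share them with the diet comparisons. On the deposited FPKM scale, with limma on log2(FPKM + 0.5), the median of all loci moved to -0.21 on Western and -0.16 on normal diet, and of the loci that passed 31.29% and 34.95% rose, against 49.94% and 51.5% by edgeR. On that scale the fold changes of Trem2 were 2.86 on Western and 1.93 on normal diet, and Tyrobp on normal diet did not pass (0.76, adjusted p = 0.0673). The pseudocount of that scale understates changes of low values.

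Markers of several cell types also rose between the times, by edgeR's adjusted p, against the same 21.9% and 24.0% of loci. On Western diet 12 of the 20 general macrophage markers rose and 1 fell, with a median log2 fold change of 1.23. Beside them rose 3 of 3 neutrophil markers tested (median 1.80), 5 of 7 cartilage and bone-like cell markers (1.32), 5 of 10 adipocyte markers (0.68), 4 of 9 skeletal muscle markers (1.85), 3 of 5 mast cell and basophil markers (1.46) and 2 of 5 dendritic cell markers (1.33). On normal diet 9 of the 20 macrophage markers rose and 1 fell (median 0.75), with 2 of 3 neutrophil markers rising (1.70) and 4 of 7 cartilage and bone-like cell markers rising and 1 falling (0.85). There 6 of 9 skeletal muscle markers fell (-2.72), and of 10 adipocyte markers 1 rose and 2 fell (-0.28). Of 13 resident-like macrophage markers 6 rose on Western and 5 on normal diet. On each diet 3 of 7 inflammatory monocyte and macrophage markers and 2 of 5 osteoclast markers rose. Of 10 fibroblast markers 3 rose and 1 fell on Western diet, and 5 rose and 1 fell on normal diet. For 10 endothelial markers these counts were 4 and 1, and 4 and 2. For 10 contractile smooth muscle markers they were 1 and 4, and 0 and 3. The part of these cells in the rises of the 10 genes was not tested.

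Marker lists of other cells were read beside the 22-week diet difference, which was positive in 46.08% of all loci. The general macrophage markers had a median log2 fold change of 0.40, with 16 of 20 positive and 0 passing by edgeR (6 higher and 0 lower at an unadjusted p under 0.05, against 7.67% and 6.60% of loci). The 13 resident-like macrophage markers had a median of -0.18, with 0 passing (1 higher and 1 lower unadjusted). Skeletal muscle markers had a median of 2.76 and mast cell and basophil markers one of 1.64, and 0 of 9 and 0 of 5 passed by edgeR, with 9 and 4 higher at an unadjusted p under 0.05. Skeletal muscle markers summed to 12.2 to 109 FPKM in AS22W, 2.40 to 17.0 in Sham22W, 1.38 to 24.3 in AS6W and 12.9 to 81.1 in Sham6W. Contractile smooth muscle markers had a median of -0.41, with 0 of 10 passing and 5 lower unadjusted. Adipocyte markers had a median of 0.39, with 9 of 10 positive, 0 passing and 4 higher unadjusted. Cartilage and bone-like cell markers had a median of 0.38, with 0 of 7 passing and 3 higher unadjusted. Their part in the values of the 10 genes was not tested.

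Against the summed FPKM of the 20 macrophage markers, the 10 genes did not keep one ratio. Lyz2, a lysozyme of macrophages and granulocytes, weighed heavily in that sum, at 455 to 626 FPKM in AS22W, 138 to 388 in Sham22W, 87.3 to 291 in AS6W and 82.0 to 233 in Sham6W. Per 1000 FPKM of these markers, Trem2 stood at 7.0 ± 0.51 in AS22W, 5.21 ± 1.87 in Sham22W, 1.76 ± 0.97 in AS6W and 1.43 ± 1.09 in Sham6W (SD, n = 4 each). Gpnmb stood at 38.7 ± 4.16 in AS22W, 29.0 ± 10.0 in Sham22W, 14.1 ± 9.15 in AS6W and 13.1 ± 6.90 in Sham6W. For Trem2, Gpnmb, Spp1 and Itgax, all AS22W ratios lay above all AS6W ratios, a position held by 0.511% of all loci tested, and the range within 6 weeks was wide, with Trem2 between 0.382 and 2.94.

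The adaptors and Msr1 ran otherwise. Fcer1g stood at 7.37 ± 1.16 per 1000 in AS22W, 9.39 ± 1.99 in Sham22W, 17.7 ± 8.55 in AS6W and 15.96 ± 1.98 in Sham6W, so both 22-week groups lay below the 6-week groups of their diet. That was so for 65.8% of loci on Western diet and 34.2% on normal diet, and the marker sum that divides them averaged 1022 FPKM in AS22W against 381 FPKM in AS6W, and 562 FPKM in Sham22W against 286 FPKM in Sham6W. Tyrobp stood at 29.3 ± 3.02 in AS22W, 27.9 ± 4.84 in Sham22W, 35.9 ± 3.32 in AS6W and 31.9 ± 4.23 in Sham6W, with overlap in all comparisons. Msr1 stood at 1.48 ± 0.25 in AS22W, 1.57 ± 0.50 in Sham22W, 2.33 ± 1.02 in AS6W and 2.88 ± 0.61 in Sham6W, with all Sham22W ratios below all Sham6W ratios and overlap on Western diet. Between the diets at 22 weeks the ratios of Itgax and Mmp12 lay wholly higher on Western diet, against 0.0830% of loci, and that of Cd9 wholly lower, against 48.1% of loci, while the other 7 overlapped. Itgax stood at 8.34, 8.62, 7.42 and 6.83 per 1000 in AS22W, against 5.87, 4.17, 6.53 and 3.46 in Sham22W. No test was made on these ratios.

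**Figure D3:**
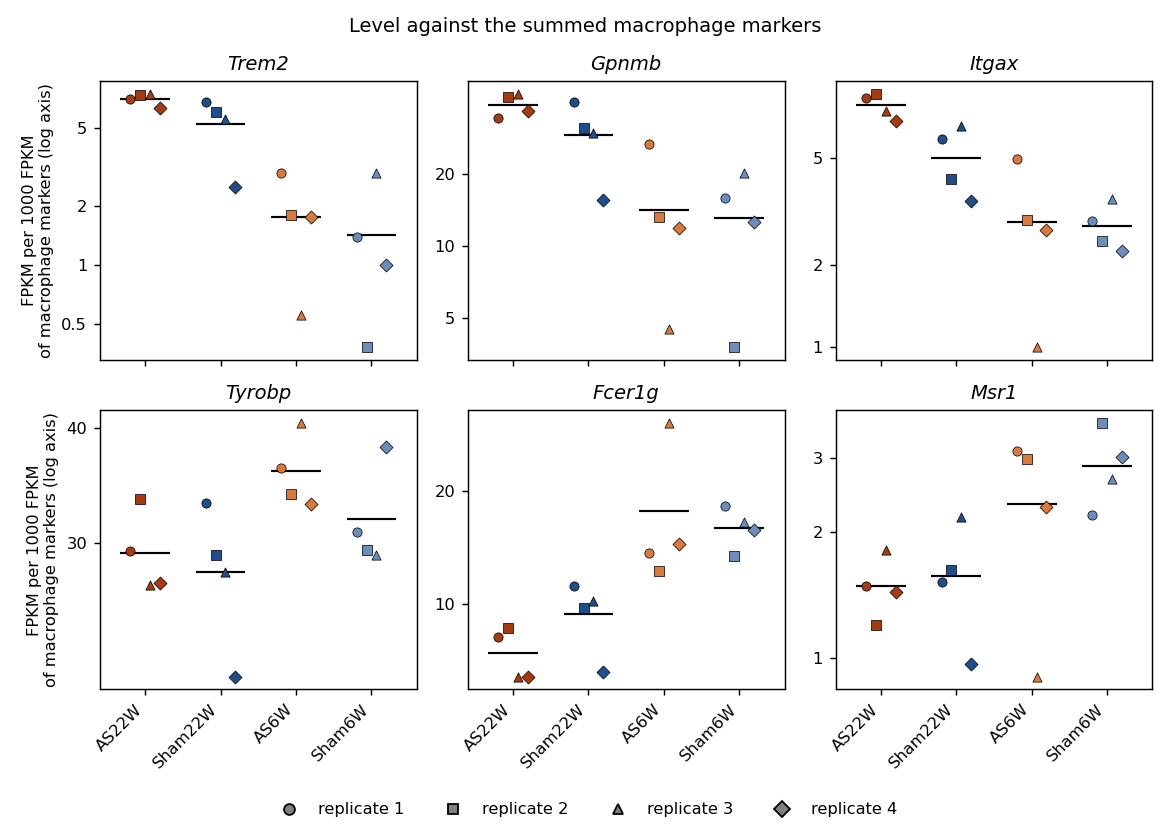
FPKM of 6 of the genes per 1000 FPKM of the 20 general macrophage markers, on log axes that differ between panels; points are libraries and bars group means. Trem2, Gpnmb and Itgax are higher in AS22W than in AS6W with no overlap, Fcer1g is lower, and Tyrobp and Msr1 overlap between AS22W and AS6W.

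The genes also differed in how they varied among libraries of the same group. With group means removed, Pearson's r of log2 CPM (counts scaled to library size, with TMM factors) with Trem2 over the 16 libraries was 0.96 for Mmp12, 0.94 for Gpnmb, 0.85 for Spp1, 0.77 for Lgals3 and 0.64 for Itgax. It was 0.27 for Msr1, 0.18 for Cd9, 0.03 for Fcer1g and 0.01 for Tyrobp. The 15 pairs among Trem2, Mmp12, Gpnmb, Spp1, Lgals3 and Itgax, a set picked after their values were seen, ran from 0.53 to 0.96. Tyrobp and Fcer1g had r = 0.94 with each other. Without AS6W replicates 1 and 3, r with Trem2 was 0.95 for Mmp12, 0.94 for Gpnmb, 0.49 for Itgax, 0.36 for Fcer1g and 0.09 for Tyrobp. Libraries share depth and tissue makeup, so these values are descriptions.

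Within single groups the same libraries were high for many of the genes. In Sham22W, replicates 1 and 3 were the highest pair for 9 of the 10 genes, all but Cd9, as in the 58.1 and 48.9 FPKM of Spp1 against 10.7 and 8.14 FPKM in replicates 2 and 4. The summed general macrophage markers did not follow that split, at 619 and 652 FPKM in replicates 1 and 3 against 324 and 654 FPKM in replicates 2 and 4. Lyz2 made up much of that sum and was highest in replicate 4, at 388 FPKM. Single markers differed: Adgre1, Itgam, C1qa, C1qb and the Cd68 locus did have replicates 1 and 3 highest. C1qb stood at 104 and 118 FPKM there, against 53.0 and 69.9 FPKM in replicates 2 and 4. Csf1r and Aif1 had replicates 3 and 4 highest. In AS22W, replicates 1 and 3 were the highest pair for 7 of the 10. In AS6W, replicate 1 was the highest for 7 of the 10 and replicate 3 for Tyrobp and Fcer1g. The same counts were not made over all loci, so whether they are particular to these genes cannot be told.

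**Figure D4:**
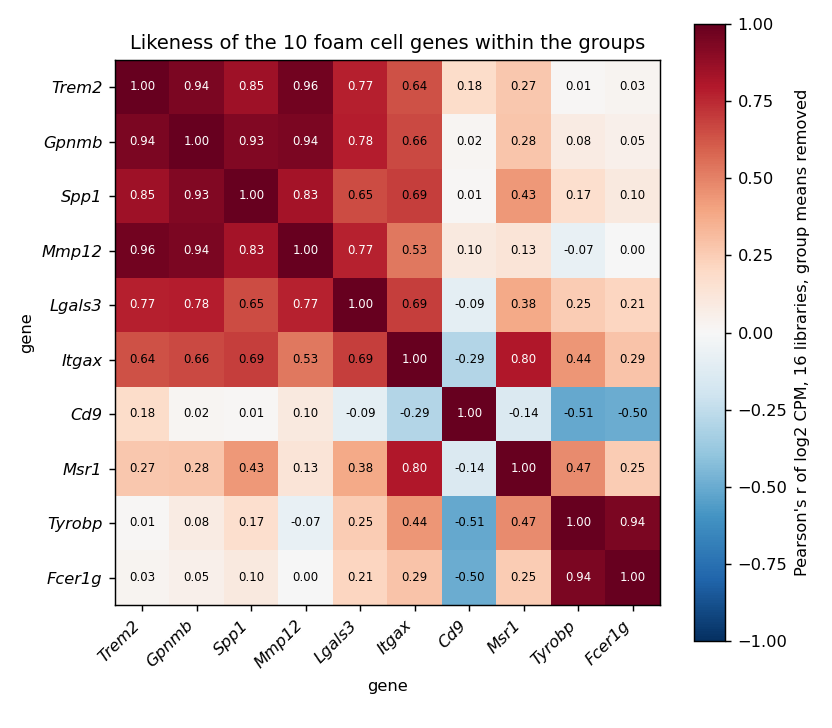
Pearson's r between the 10 genes over 16 libraries, from log2 CPM with the mean of each group removed; red is positive and blue negative. Trem2, Gpnmb, Spp1, Mmp12, Lgals3 and Itgax form a block with r of 0.53 to 0.96, and Tyrobp and Fcer1g form a pair at 0.94.

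Over all 16 libraries, with the group differences kept, r with Trem2 was 0.99 for Gpnmb, 0.96 for Lgals3, 0.95 for Itgax, 0.94 for Spp1, 0.93 for Mmp12, 0.79 for Tyrobp, 0.75 for Cd9, 0.66 for Msr1 and 0.43 for Fcer1g. Within the 22-week libraries alone Tyrobp reached 0.94 and Fcer1g 0.87, and within the 6-week libraries -0.05 and -0.08. Those values pool both diets, so the difference between the diets enters them. Among the 18229 other loci that name 1 gene and average 1 FPKM or more, the 10 most like Trem2 were Wdr13, Thbs1, Gdf15, Adam8, Dpp7, Pld3, Gusb, Capg, Fbxl15 and Sdc1, with r between 0.957 and 0.972; the 99th percentile of these loci was 0.917 and the 90th 0.813. Gdf15, a stress-induced cytokine, stood at 2.41 to 3.58 FPKM in AS22W, 0.876 to 2.85 in Sham22W, 0.193 to 0.470 in AS6W and 0.184 to 0.369 in Sham6W. Wdr13 varied little in level, between 8.19 and 10.1 FPKM over the 16 libraries.

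The genes through which TREM2 and related receptors signal did not pass for diet by edgeR. Of 24 listed genes of TREM2 and ITAM signalling, 21 were tested. For diet 0 passed by edgeR at 22 weeks (3 higher and 0 lower at an unadjusted p under 0.05, against 7.67% and 6.60% of loci, median 0.16) and 0 at 6 weeks (6 higher and 0 lower unadjusted, against 5.82% and 4.84% of loci, median 0.32). At 22 weeks the lowest p was that of Ms4a7, a four-span membrane protein of macrophages, at 2.87 ± 0.90 FPKM in AS22W against 0.983 ± 0.341 FPKM in Sham22W (log2 fold change 1.51 ± 0.36, edgeR adjusted p = 0.0867). Ms4a7 did pass in 4 of 26 alternative fits. From 6 to 22 weeks 7 of the 21 rose and 1 fell on Western diet, against 21.9% of loci rising and 21.9% falling, and 10 rose and 1 fell on normal diet, against 24.0% and 22.6%. On Western diet they included the activating receptors Clec7a, which recognises beta-glucan (2.24 ± 0.54, adjusted p = 0.00349), and Fcgr1, the high-affinity IgG receptor (1.52 ± 0.30, adjusted p = 0.000904).

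Other genes of lipid-laden macrophages did pass at 22 weeks. Of 25 listed outside the 10, 24 were tested and 22 were positive for diet, against 46.08% of loci, with a median of 0.57. By edgeR 3 passed, all higher on Western diet, against 0.174% of loci. Lipa, the lysosomal acid lipase that frees cholesterol from its esters, stood at 13.01 ± 1.28 FPKM in AS22W against 7.0 ± 0.87 FPKM in Sham22W (0.87 ± 0.11, adjusted p = 0.0179). Ctsd, a lysosomal protease whose locus also carries Ifitm10 and Gm49369, stood at 180 ± 5.97 FPKM in AS22W against 104 ± 14.9 FPKM in Sham22W (0.78 ± 0.12, adjusted p = 0.0207). Ctsb, another lysosomal protease, stood at 233 ± 10.1 FPKM in AS22W against 154 ± 20.5 FPKM in Sham22W (0.57 ± 0.11, adjusted p = 0.0417). Of these, Lipa and Ctsd lost their call without Sham22W replicate 2 and when the 8 libraries of 22 weeks were fitted alone, and Ctsb lost its call without any 1 of 14 libraries. At 6 weeks 0 rose and 1 fell, against 0.220% of loci falling: the fatty acid binding protein gene Fabp5 stood at 8.62 ± 2.98 FPKM in AS6W against 29.5 ± 5.30 FPKM in Sham6W (-1.82 ± 0.30, adjusted p = 0.015), a call lost without AS6W replicate 2 or Sham6W replicate 1. The difference of the diet effects passed for 4 of the 24, against 0.145% of loci higher, namely Lipa, Ctsd, Fabp5 and Ctsb, with edgeR adjusted p between 0.017 and 0.0478. These calls were easily lost: of the 16 libraries, leaving out any 1 of 4 ended that of Lipa, any 1 of 8 that of Ctsd, any 1 of 10 that of Fabp5 and any 1 of 15 that of Ctsb. All 4 were also lost without the 4 libraries highest in lymphocyte markers (adjusted p between 0.126 and 0.191) and with the replicate block. Adipocyte markers moved in the same direction, with a median diet difference of -0.32 at 6 weeks (1 of 10 higher and 4 lower unadjusted) and of 0.39 at 22 weeks, and a median difference of these effects of 0.85 (6 higher unadjusted, against 6.89% of loci). Their part in the values of Lipa, Ctsd, Fabp5 and Ctsb was not tested.

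From 6 to 22 weeks, 18 of these 24 rose and 3 fell on Western diet, against 21.9% of loci each way, and 12 rose and 7 fell on normal diet, against 24.0% and 22.6%. The cholesterol exporter gene Abcg1 stood at 15.0 ± 2.16 FPKM in AS22W against 3.96 ± 0.485 FPKM in AS6W (2.17 ± 0.17, adjusted p = 3.45e-07), and at 8.74 ± 1.80 FPKM in Sham22W against 2.68 ± 0.601 FPKM in Sham6W (1.92 ± 0.17, adjusted p = 7.37e-07). Lipa fell on normal diet (-0.68 ± 0.11, adjusted p = 0.000121), as did the scavenger receptor gene Cd36 (-1.56 ± 0.23, adjusted p = 7.23e-05), which fat and endothelial cells also carry; 2 of the 10 adipocyte markers fell there and 1 rose, and their part was not tested.

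Most of the listed transcription factors of macrophages rose with time, and none passed for diet by edgeR. Of 20 listed regulators 19 were tested, and 0 passed for diet at 22 weeks by edgeR (1 higher and 0 lower at an unadjusted p under 0.05, against 7.67% and 6.60% of loci) or at 6 weeks (4 higher and 0 lower unadjusted, against 5.82% and 4.84%). On Western diet 12 rose and 1 fell from 6 to 22 weeks, against 21.9% of loci each way, and on normal diet 11 rose and 0 fell, against 24.0% and 22.6%. The locus of Cebpb, shared with A530013C23Rik, stood at 16.5 ± 1.98 FPKM in AS22W against 3.31 ± 0.745 FPKM in AS6W (2.57 ± 0.19, adjusted p = 1.88e-07). Tfeb, a regulator of lysosome genes, rose by 1.14 ± 0.14 on Western diet (adjusted p = 1.62e-05) and 1.08 ± 0.14 on normal diet (adjusted p = 2.2e-05). Mitf, which binds the E-box, had the lowest p of the list for diet at 22 weeks, with 0.27 ± 0.12 (adjusted p = 0.318).

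Partners of the 10 proteins did not pass for diet by edgeR either. Of 20 listed genes, such as the integrin chains that pair with CD11c or bind osteopontin and the inhibitors of matrix metalloproteases, 0 passed by edgeR at 22 weeks (1 higher and 1 lower at an unadjusted p under 0.05, against 7.67% and 6.60% of loci) and 0 at 6 weeks (0 higher and 2 lower unadjusted, against 5.82% and 4.84%). Cd44, a receptor for osteopontin, had the lowest p at 22 weeks, at 8.95 ± 1.49 FPKM in AS22W against 6.62 ± 1.09 FPKM in Sham22W (0.41 ± 0.16, adjusted p = 0.238). From 6 to 22 weeks on Western diet 9 rose and 2 fell, against 21.9% of loci each way. They included Igsf8 (1.003 ± 0.11, adjusted p = 6.26e-06) and Ptgfrn (0.83 ± 0.11, adjusted p = 2.97e-05), partners of the tetraspanin CD9. Timp2, a metalloprotease inhibitor, rose as well (0.70 ± 0.11, adjusted p = 0.000174). The integrin chain Itgb1 fell (-0.67 ± 0.15, adjusted p = 0.00183).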

How the data were processed

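RNA of whole aorta was sequenced in 16 libraries, 4 in each of 4 groups. The deposited table holds FPKM and estimated counts per locus, per the file headers; the counts are whole numbers, and low ones cluster at steps of about 4. Reads were trimmed with cutadapt 1.9 and checked with FastQC, and the genome build was GRCm38, per the submitters' processing notes. For aligner, counter, annotation and strandedness the sources used here give nothing. Columns were matched to samples by title. The 3714 loci with no gene name, holding 0.606% of counts, were left out.

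Loci with 1 FPKM or more in at least 4 libraries (24091, holding 98.0% of counts) were tested with edgeR 4.0.16 in R 4.3.3: TMM scaling, a quasi-likelihood model of 4 group means, 2-sided, Benjamini-Hochberg adjustment over all loci, threshold 0.05. The test was checked on simulated counts. Alternatives were DESeq2 1.42.0, limma 3.58.1 on log2(FPKM + 0.5) and log2(FPKM + 0.1), other filters and scalings, a replicate block and each library left out. The fits without AS6W replicates 1 and 3, and without the 4 libraries highest in lymphocyte markers, were chosen after seeing the data.

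The 10 genes and all lists were chosen with earlier results of these data known. Outside the 10, genes named are those called in a list, up to 5 by lowest p, or else the one with the lowest p, and the 10 most like Trem2. One gene that this rule names is not reported here.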

Additional observations from a re-analysis of the deposited data

Results flagged for a closer look

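In 14 of the 40 sets of 4 libraries (10 genes in 4 groups), the highest library lay apart from the other 3 by Dixon's criterion, which divides the gap to the nearest library by the whole range. The criterion is set to mark about 5 percent of sets of independent normal values, counting both ends, and the 10 genes share libraries, so these sets are not independent. Over all loci tested, the highest library lay apart in 4.602% of sets and the lowest in 2.13%. In AS6W replicate 1 the share over all loci was 1.93%. AS6W replicate 1 was the library in 7 of them, with 1.10 FPKM of Trem2, 9.96 of Gpnmb, 24.3 of Spp1, 14.6 of Lgals3, 1.86 of Itgax, 2.68 of Mmp12 and 1.17 of Msr1. AS22W replicate 1 was the library in 3, with 34.8 FPKM of Tyrobp, 9.66 of Fcer1g and 47.5 of Lgals3. Sham6W replicate 2 was the library in 2, with 13.5 FPKM of Tyrobp and 1.66 of Msr1. AS6W replicate 3 had 20.2 FPKM of Fcer1g, and Sham6W replicate 3 had 7.81 FPKM of Lgals3. The cause was not tested.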

How the results depend on the processing

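Every count of the 10 genes called kept its value or stayed within 1.5 times, except for diet at 22 weeks, where DESeq2 called 4 and limma on log2(FPKM + 0.5) called 2, against 0 by edgeR. Leaving out 1 library gave 8 to 9 genes on Western and 6 to 7 on normal diet between the times, and 0 in the other comparisons. Counts over all loci moved more. For diet at 22 weeks (55 called) they were 12 with no filter, 828 with DESeq2, 146 and 140 with limma (pseudocounts 0.5 and 0.1), 0 from the libraries compared alone, 318 without the 4 libraries highest in lymphocyte markers, and 0 (without Sham22W replicate 2) to 429 (without Sham22W replicate 4) with 1 library left out. For diet at 6 weeks (68 called) they were 459 with DESeq2, 24 without those 4 libraries, 432 without AS6W replicates 1 and 3, and 30 to 94 with 1 left out. For the difference (44 called) they were 26 with no filter, 497 with DESeq2, 26 with limma at 0.1, 0 without the 4 libraries, 186 without AS6W replicates 1 and 3, and 3 to 74 with 1 left out; the libraries compared alone are all 16 there.

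Signs that turned were all of values that had not passed. Diet at 6 weeks without the 4 libraries gave -0.094 for Trem2, -0.37 for Gpnmb, -0.72 for Spp1, -0.34 for Lgals3, -0.0563 for Itgax and -0.67 for Mmp12. Without AS6W replicates 1 and 3 it gave -0.17 for Tyrobp, -0.47 for Fcer1g, -0.14 for Gpnmb, -0.41 for Spp1, -0.40 for Lgals3, -0.23 for Itgax and -0.33 for Mmp12. Leaving out 1 library gave -0.16 to 0.78 for Gpnmb, -0.50 to 0.68 for Spp1, -0.27 to 0.55 for Lgals3, -0.26 to 0.45 for Itgax, -0.38 to 0.85 for Mmp12, -0.24 to 1.05 for Fcer1g and -0.52 to 0.26 for Msr1 for diet at 6 weeks, -0.55 to 0.73 for the difference of Fcer1g, and, between the times, -0.12 to 1.19 for Fcer1g on Western and -0.11 to 0.74 for Msr1 on normal diet. Trem2 for diet at 6 weeks kept its sign there, at 0.14 to 1.26. The difference for Fcer1g was 0.13 and 0.16 with limma (0.5 and 0.1) and 0.97 without AS6W replicates 1 and 3, and for Tyrobp -0.0824 without the 4 libraries; Fcer1g between the times on Western diet was -0.11 without the 4. The causes were not tested.

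Deviations from the group means had r from -0.20 to 0.12 between same-numbered libraries. Differently numbered libraries were not compared in this way, so whether the numbers pair the libraries cannot be told. With the replicate block the counts were 28 for diet at 6 weeks, 26 for diet at 22 weeks and 0 for the difference, where Fcer1g was 0.12. Mmp12 on normal diet between the times then passed (1.13, adjusted p = 0.0366).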
